A study of Rattus norvegicus with 12 samples.

Results

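Fibrinogen is the plasma protein that thrombin turns into fibrin, the mesh of a blood clot. Its subunits are the Aα chain (Fga), the Bβ chain (Fgb) and the γ chain (Fgg), which are joined by disulfide bonds into a paired molecule. The 3 genes were taken as every row of the array annotated with exactly 1 of these symbols. Each gene had 1 row, so the set holds 3 of 18166 genes tested, and 0 rows named a chain together with another gene.

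Thrombin releases short peptides from the Aα and Bβ chains, after which the molecules polymerise, and factor XIII then links γ chains to each other. Hepatocytes make most circulating fibrinogen, and interleukin-6 raises its transcription through STAT3 as part of the acute phase response. Kidney tubule cells are known to transcribe the chains after injury, and fibrinogen has been described as a marker of acute kidney injury.

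The arrays measured total RNA of rat kidney after ischemia-reperfusion injury, in which blood flow to the kidney is stopped and restored. There were 12 arrays from 12 animals in 4 groups of 3. Rats received anti-miR-182 (an inhibitor of the microRNA miR-182) or placebo, and kidneys of either kind were sampled at day 2 or at day 7. All 4 groups had been injured, and no uninjured kidney is part of the comparison, so the induction of the chains by injury itself is not measured here. Neither the rats' strain, sex and age nor the ischemia time, inhibitor dose and injection schedule is known from the labels. Anti-miR-182 is directed against the microRNA below, printed because it is what separates the treated groups from placebo; capitals mark its seed, bases 2 to 8.
rno-miR-182: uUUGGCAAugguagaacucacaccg

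Array medians lay between 5.98 and 6.10 (log2) at day 2 and between 5.84 and 5.93 at day 7. The days separated on the first principal component (51.9% of the variance). Among treated kidneys of day 2, replicate 3 lay apart on the second (10.2%), at -29.41 against -9.18 to 15.38 for the other arrays. The proximal tubule marker list was bright on all arrays (mean log2 signal 9.19 to 10.5 over 18 genes), so the labelled tissue carried its defining markers.

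The chain genes lie side by side on rat chromosome 2 (GRCr8, RefSeq), Fgg and Fga on the plus strand and Fgb on the minus strand. The 250 bases before each annotated start are shown because the chain signals varied together in these kidneys. Capitals mark CTGGGAA, the core of the interleukin-6 response element described in fibrinogen promoters, searched on both strands. The windows are chr2:170652833-170653082 (plus) for Fgg, chr2:170671919-170672168 (plus) for Fga and chr2:170700876-170701125 (minus) for Fgb, each printed 5′ to 3′ on the gene's strand.
Fgg: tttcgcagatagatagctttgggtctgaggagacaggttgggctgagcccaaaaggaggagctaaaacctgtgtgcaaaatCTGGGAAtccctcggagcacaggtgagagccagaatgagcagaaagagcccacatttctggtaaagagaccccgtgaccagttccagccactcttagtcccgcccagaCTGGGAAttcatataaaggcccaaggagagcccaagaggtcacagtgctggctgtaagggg
Fga: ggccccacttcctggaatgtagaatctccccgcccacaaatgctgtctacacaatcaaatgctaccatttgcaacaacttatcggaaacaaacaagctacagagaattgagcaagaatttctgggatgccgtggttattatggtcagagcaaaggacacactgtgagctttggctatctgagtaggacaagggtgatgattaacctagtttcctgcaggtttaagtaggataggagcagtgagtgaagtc
Fgb: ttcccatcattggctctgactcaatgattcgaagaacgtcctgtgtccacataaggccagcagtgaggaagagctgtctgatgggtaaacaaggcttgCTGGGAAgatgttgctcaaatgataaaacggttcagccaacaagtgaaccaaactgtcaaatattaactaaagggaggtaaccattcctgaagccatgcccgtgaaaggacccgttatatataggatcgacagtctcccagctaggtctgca

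CTGGGAA stood at 169 and 61 bases before the start of Fgg and at 152 bases before that of Fgb, on the gene's own strand. Of 27457 rat promoter windows of the same length, 9.33% held it at least once and 0.481% at 2 or more places, as in Fgg. The window of Fga held no CTGGGAA, though the shorter run CTGGGA stands in its sequence and was not among the motifs searched. It held TTCNNNGAA, the STAT palindrome (242 bases before the start), which also stood 223 bases before Fgb and is found in 7.52% of windows. TTNNGNAA, a loose C/EBP pattern present in 36.8% of windows, stood once before Fga and at 2 places before Fgb, and TATAAA (13.1%) stood 50 bases before Fgg. A match is a run of letters and was not tested for binding here.

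**Figure D1:**
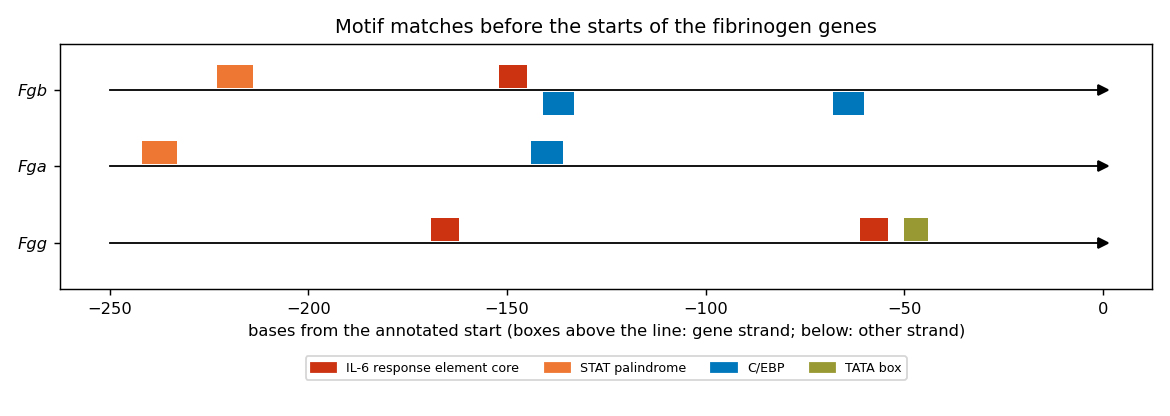
Position of motif matches in the 250 bases before the annotated start of each chain gene (x axis, bases from the start; boxes above a line lie on the gene's strand, below it on the other strand; colours name the motif). Fgg has CTGGGAA, the form of the interleukin-6 response element core that was searched, at 169 and 61 bases before its start. Fgb has it at 152, and Fga has the STAT palindrome and no CTGGGAA.

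The first question was how chain signals differed between anti-miR-182 and placebo at day 2. All 3 chain means were lower under anti-miR-182 than under placebo, by 0.82 to 1.10 on the log2 scale (1.77-fold to 2.15-fold). None of these differences passed over all genes.

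For Fga, which encodes the Aα chain, the placebo animals at day 2 had log2 signals of 9.66, 9.75 and 9.71 for replicates 1 to 3, and the treated animals had 8.80, 9.18 and 8.67. All treated kidneys lay below all placebo kidneys, and the placebo values were tightly grouped. Group means were 8.88 ± 0.26 and 9.70 ± 0.046 (SD, n = 3 each). For Fgb, the Bβ chain, placebo animals had 9.35, 9.13 and 9.62 and treated animals 8.30, 9.16 and 7.86. Here treated replicate 2 was level with the lowest placebo animal, so the groups overlapped. For Fgg, the γ chain, placebo animals had 7.06, 7.32 and 7.38 and treated animals 6.17, 6.75 and 5.53. All treated animals were again lower than all placebo animals, with replicate 3 the lowest and replicate 2 the highest of their group in every chain. Fgg was the dimmest chain. Its 5.53 in treated replicate 3 lay within the range of the array-wise lower quartiles of all genes (5.34 to 5.60).

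**Figure D2:**
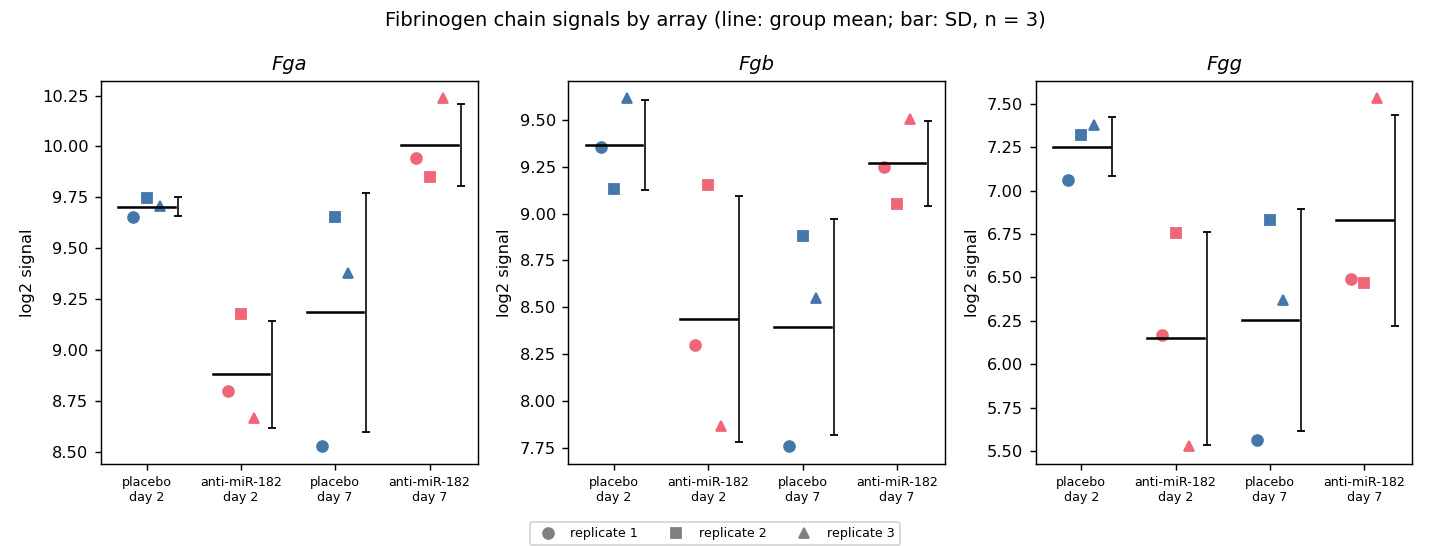
Log2 signal (y axis) of Fga, Fgb and Fgg in each array by group; symbols give the replicate number, horizontal lines the group mean and bars the SD (n = 3). In each panel the mean under anti-miR-182 is below placebo at day 2 and above placebo at day 7.

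Limma gave log2 differences of -0.82 ± 0.23 for Fga (SE; adjusted p = 0.644), -0.93 ± 0.30 for Fgb (0.662) and -1.10 ± 0.35 for Fgg (0.662). The limma fit called 0 of 18166 genes at day 2 (0%), and 438 genes (2.41%) were lower with an unadjusted p under 0.05, the 3 chains among them (0.00273, 0.00832 and 0.00665). By the size of the fall Fgg ranked 3, Fgb 6 and Fga 10 among 18166 genes. Of all genes, 4.24% had treated animals entirely below placebo animals at day 2, as Fga and Fgg did, and 8.06% had them entirely above. With 3 animals against 3 the exact two-sided permutation p cannot fall below 0.1, and it was 0.1 for Fga, 0.2 for Fgb and 0.1 for Fgg. Without replicate 3 of the treated group, the array that stood apart, the differences were -0.72, -0.64 and -0.79.

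At day 7 the direction was the opposite. All 3 chain means were higher under anti-miR-182 than under placebo, by 0.57 to 0.87 on the log2 scale (1.49-fold to 1.83-fold), and again none passed over all genes.

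Fga signals at day 7 were 8.53, 9.65 and 9.38 in placebo animals and 9.94, 9.85 and 10.24 in treated animals. All treated kidneys lay above all placebo kidneys, and placebo replicate 1 was well below the rest. For Fgb the placebo animals had 7.76, 8.88 and 8.55 and the treated animals 9.25, 9.05 and 9.51, so the groups again did not overlap. For Fgg the placebo animals had 5.57, 6.83 and 6.37 and the treated animals 6.49, 6.47 and 7.53. The Fgg groups overlapped: placebo replicate 2 lay above treated replicates 1 and 2. The Fgg signal of placebo replicate 1 (5.57) lay within the range of the array-wise lower quartiles (5.34 to 5.60).

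The log2 differences at day 7 were 0.82 ± 0.23 for Fga, 0.87 ± 0.30 for Fgb and 0.57 ± 0.35 for Fgg (SE), each with an adjusted p = 0.999 in limma. Limma called 0 of 18166 genes (0%), and 292 genes (1.61%) were higher with an unadjusted p under 0.05. Fga (0.00273) and Fgb (0.0119) were among these and Fgg (0.12) was not. Of all genes, 3.5% had treated animals entirely above placebo animals at day 7, as Fga and Fgb did, and 3.75% had them entirely below. The exact two-sided permutation p was 0.1 for Fga and for Fgb, the smallest possible, and 0.4 for Fgg. Single animals moved these values: without placebo replicate 1 they were 0.49, 0.55 and 0.23 for Fga, Fgb and Fgg. For Fgg, leaving out treated replicate 3 gave 0.22, and leaving out placebo replicate 2 gave 0.86.

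Whether the treatment differences were unequal between days was tested next, which does not by itself test a change of sign. The value used was the treatment difference at day 7 minus that at day 2. It was 1.65 ± 0.32 for Fga, 1.80 ± 0.43 for Fgb and 1.68 ± 0.49 for Fgg on the log2 scale (SE). Among 18166 genes these ranked 5, 1 and 4 from the highest. None passed in limma (adjusted p = 0.919, 0.999 and 0.999, with unadjusted p = 0.000152, 0.000867 and 0.00413). Limma called 0 genes (0%) in this comparison, with 713 genes (3.92%) at an unadjusted p under 0.05. Exchanging animals between treatments within each day gave exact two-sided permutation p = 0.005 for Fga, the smallest this design allows, 0.01 for Fgb and 0.03 for Fgg, for each gene taken singly and with no adjustment over genes.

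Fga had treated animals entirely below placebo at day 2 and entirely above at day 7, a pattern met by 13 of 18166 genes (0.0716%), while 39 genes (0.215%) showed the reverse. Leaving out treated replicate 3 of day 2, the difference between days was 1.54, 1.51 and 1.37 for Fga, Fgb and Fgg. Without placebo replicate 1 at day 7 it was 1.32, 1.48 and 1.33, and without both arrays it was 1.21, 1.19 and 1.02. The pair of arrays was chosen for this check after their values had been seen.

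**Figure D3:**
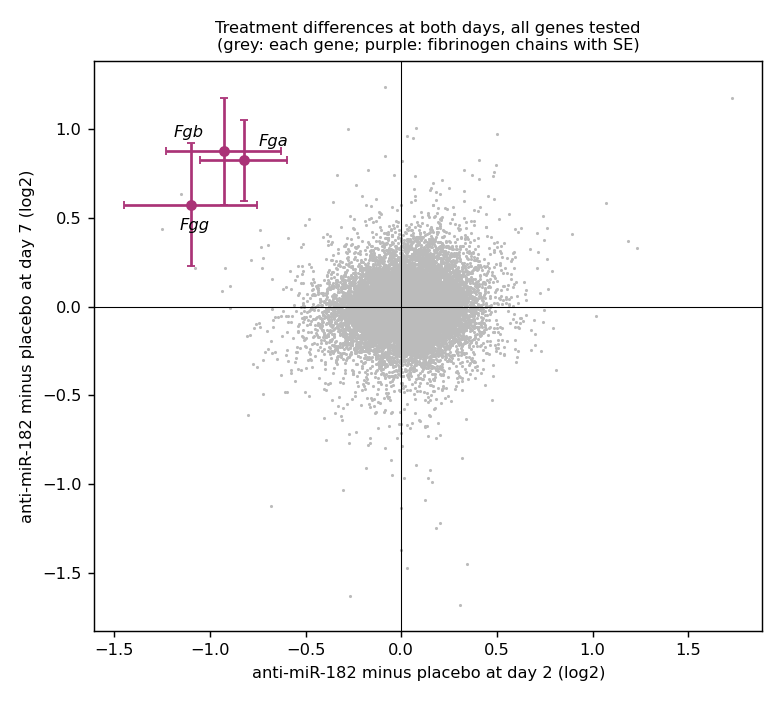
Anti-miR-182 minus placebo at day 2 (x axis) and at day 7 (y axis), both in log2; each grey point is 1 of 18166 genes and purple points are the fibrinogen chains with their SE. The chains lie at the upper left edge, lower at day 2 and higher at day 7, with day 2 values of -0.82 to -1.10 and day 7 values of 0.57 to 0.87.

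Averaged over both days, the opposite differences cancelled. The mean treatment difference was -0.00010 ± 0.16 for Fga, -0.027 ± 0.21 for Fgb and -0.265 ± 0.245 for Fgg (SE; adjusted p = 1, 0.99 and 0.919 in limma). The 95% intervals ran from -0.34 to 0.34 for Fga, -0.49 to 0.43 for Fgb and -0.79 to 0.26 for Fgg. In this comparison 1 gene of 18166 (0.0055%) was called, and it was not a chain.

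The course from day 2 to day 7 was compared within each treatment. In placebo kidneys the chains were lower at day 7, by -0.52 ± 0.23 for Fga, -0.97 ± 0.30 for Fgb and -0.998 ± 0.35 for Fgg (SE, log2). Under anti-miR-182 they were higher at day 7, by 1.13 ± 0.23, 0.83 ± 0.30 and 0.68 ± 0.35. The median of all genes shifted by -0.18 in placebo and -0.21 under anti-miR-182. Relative to it, the chains differed by -0.34, -0.79 and -0.82 in placebo and by 1.33, 1.03 and 0.885 under anti-miR-182. Both days may have been normalized apart, and day and normalization cannot then be told apart in these values.

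In limma Fgb (adjusted p = 0.0291) and Fgg (0.0458) fell in placebo, and Fga (0.101) did not pass. Of all genes 28% were called in that comparison, 23.7% lower and 4.22% higher. Under anti-miR-182 Fga rose (adjusted p = 0.00359), while Fgb (0.0548) and Fgg (0.154) did not pass, where 27.5% of all genes were called, 2.68% higher and 24.9% lower. With quantile normalization 1419 genes rose and 1471 fell in placebo (766 and 4314 as deposited), and 1261 rose and 1415 fell under anti-miR-182 (487 and 4515 as deposited). Under that scaling the placebo calls of Fgb (-0.68, adjusted p = 0.127 in limma) and Fgg (-0.83, 0.119) ended and Fgb rose under anti-miR-182 (1.09, 0.0249). Centring on array medians also ended the placebo calls of Fgb (0.0581) and Fgg (0.0875) in limma, and called the rise of Fgb under anti-miR-182 (0.0417). Without placebo replicate 1 at day 7 the placebo falls were -0.65 for Fgb (adjusted p = 0.12 in limma) and -0.65 for Fgg (0.18). In placebo all 3 chains had day 7 animals entirely below day 2 animals, as had 40% of all genes, while 8.38% had them entirely above. Under anti-miR-182 Fga had day 7 animals entirely above, as had 5.36% of all genes (35% had them entirely below), and the other chains overlapped.

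The order of group means differed somewhat between chains. Fga was highest under anti-miR-182 at day 7 (10.01 ± 0.20, SD, n = 3), followed by the placebo kidneys of day 2 (9.70 ± 0.046), those of day 7 (9.19 ± 0.59) and the treated kidneys of day 2 (8.88 ± 0.26). The lower neighbours in that order overlapped between animals, and the upper ones did not. Fgb was highest in placebo at day 2 (9.37 ± 0.24), next to anti-miR-182 at day 7 (9.27 ± 0.23), and lower under anti-miR-182 at day 2 (8.44 ± 0.66) and in placebo at day 7 (8.40 ± 0.58). Fgg followed the order of Fgb except at the low end, with 7.25 ± 0.17, 6.83 ± 0.61, 6.15 ± 0.61 under anti-miR-182 at day 2 and 6.26 ± 0.64 in placebo at day 7. For Fgb and Fgg each pair of neighbours in the order overlapped between animals.

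The chains varied together between animals. At day 7 the difference Fga minus Fgb within an array stayed between 0.69 and 0.83 over 6 animals (SD 0.050), while each gene alone had an SD of 0.60 (Fga) and 0.62 (Fgb). At day 2 that difference ran from 0.020 to 0.80 (SD 0.305). The differences of Fga and Fgb from Fgg had SDs of 0.29 and 0.21 at day 2 and 0.30 and 0.31 at day 7, against an SD of 0.73 and 0.64 for Fgg alone.

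Across the 6 animals of a day, Fga and Fgb had Pearson r = 0.913 at day 2 (exact permutation p = 0.0125, adjusted 0.0225; Spearman rho = 0.657, exact p = 0.175, adjusted 0.242) and r = 0.997 at day 7 (exact p = 0.00139, adjusted 0.0222; rho = 1, exact p = 0.00278, adjusted 0.05). Leaving out the 2 animals farthest from the median of Fga gave r = 0.422 at day 2 and 0.991 at day 7, so the day 2 relation of Fga and Fgb rests on those animals. For Fga and Fgg r was 0.964 at day 2 (exact p = 0.00278, adjusted 0.0222; rho = 0.943, exact p = 0.0167, adjusted 0.1) and 0.885 at day 7 (exact p = 0.0319, adjusted 0.0442; rho = 0.829, exact p = 0.0583, adjusted 0.105), and 0.923 and 0.12 without the 2 farthest animals. For Fgb and Fgg it was 0.957 at day 2 (exact p = 0.00833, adjusted 0.0222; rho = 0.829, exact p = 0.0583, adjusted 0.105) and 0.878 at day 7 (exact p = 0.0292, adjusted 0.0438; rho = 0.829, exact p = 0.0583, adjusted 0.105), and 0.511 and 0.146 without them. Both day 7 relations with Fgg and the day 2 relation of Fgb and Fgg rest on those animals. The values were adjusted over 18 relations. Treated and placebo animals enter each of these correlations together. Within the groups, deviations from the 4 group means over 12 arrays correlated with r = 0.872 for Fga and Fgb (exact permutation p = 0.00463, adjusted 0.0139; rho = 0.853, exact p = 0.01, adjusted 0.0181), 0.89 for Fga and Fgg (exact p = 0.00231, adjusted 0.0139; rho = 0.93, exact p = 0.00309, adjusted 0.0181) and 0.882 for Fgb and Fgg (exact p = 0.00386, adjusted 0.0139; rho = 0.867, exact p = 0.0054, adjusted 0.0181). Without the 2 farthest arrays these were 0.849, 0.919 and 0.82. The adjustment covered 9 relations.

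**Figure D4:**
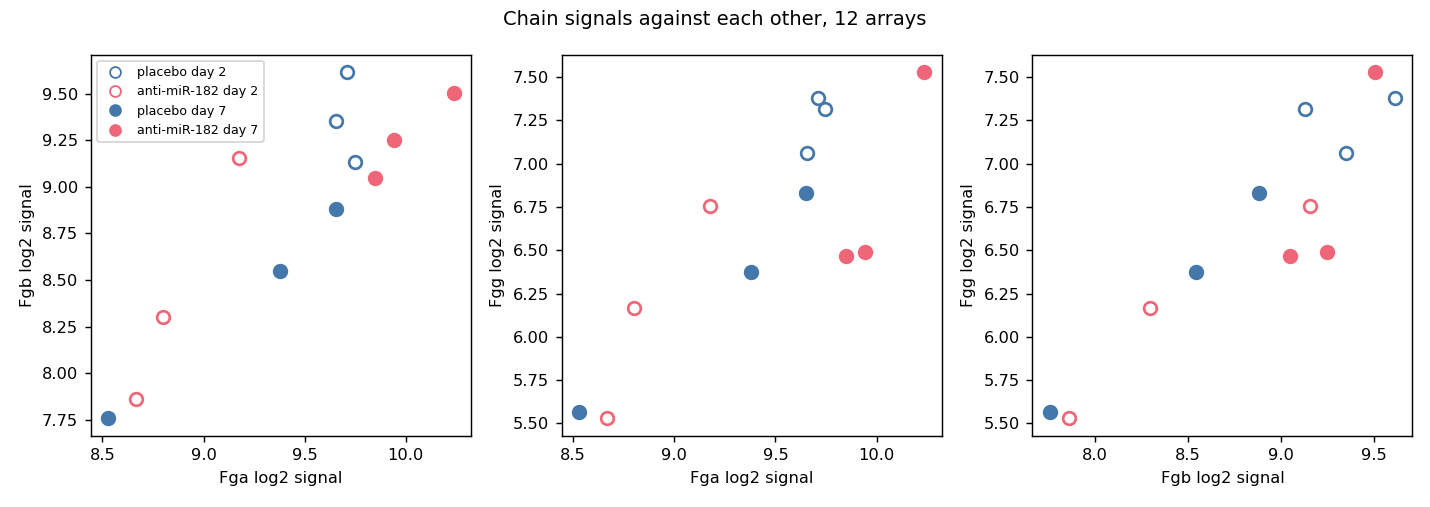
Log2 signals of each pair of chains (x and y axes) in the 12 arrays; open symbols are day 2, filled symbols day 7, blue placebo and red anti-miR-182. The arrays run from low to high for both genes of a pair, with placebo replicate 1 of day 7 (Fga 8.53, Fgb 7.76, Fgg 5.57) and treated replicate 3 of day 2 (8.67, 7.86, 5.53) at the low end.

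The genes next to the cluster on chromosome 2 were compared to see whether the pattern extended beyond it. On either side stand Lrat, which esterifies retinol, and the splicing factor Plrg1. Lrat was lower under anti-miR-182 at both days (-0.24 ± 0.17 at day 2 and -0.51 ± 0.17 at day 7, SE, limma adjusted p = 0.831 and 0.999) and Plrg1 differed by 0.045 ± 0.15 and 0.14 ± 0.15 (0.969 and 0.999). Their differences between days were -0.26 and 0.091, against 1.65 to 1.80 for the chains.

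The tubule injury markers Havcr1 and Lcn2 had treatment differences of the same signs as the chains, in the full set of arrays, and these did not pass either. Havcr1, which encodes kidney injury molecule 1, differed by -0.74 ± 0.33 at day 2 and 0.43 ± 0.33 at day 7, and Lcn2, which encodes the lipocalin NGAL, by -1.25 ± 0.55 and 0.44 ± 0.55 (SE; limma adjusted p = 0.754 at day 2 and 0.999 at day 7 for both). Their differences between days, 1.16 and 1.68, ranked 9 and 3 from the highest among 18166 genes and did not pass (adjusted p = 0.999 each in limma). These marker values rest on single arrays. Without placebo replicate 1 of day 7 the day 7 difference was 0.028 for Havcr1 and -0.053 for Lcn2, so the sign of Lcn2 turned. Leaving out treated replicate 3 of day 2 gave day 2 differences of -0.40 for Havcr1 and -0.38 for Lcn2, and differences between days of 0.825 (rank 45) and 0.82 (rank 49). Without both arrays the differences between days were 0.425 (rank 618) and 0.33 (rank 1137), where the chains had 1.21, 1.19 and 1.02. These omissions were added after the values had been seen. The lowest Havcr1 signals were those of the same animals that were lowest in the chains, 10.08 in treated replicate 3 of day 2 and 9.78 in placebo replicate 1 of day 7. Their Lcn2 signals were 7.33 and 9.65, the lowest of each group. Of 21 injured tubule markers 16 had lower and 5 higher means in treated than in placebo kidneys of day 2 (median -0.37, against 0.033 over all genes), and 14 were lower and 7 higher at day 7 (median -0.090, against -0.00078), with 0 called in limma at either day. In bulk tissue, fewer injured cells and less transcript in each of them cannot be told apart.

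Deviations of each chain from its group mean correlated with those of Havcr1 with r = 0.81 for Fga (exact permutation p = 0.0208, adjusted 0.0268; rho = 0.804, exact p = 0.0255, adjusted 0.0295), 0.805 for Fgb (exact p = 0.0316, adjusted 0.0356; rho = 0.783, exact p = 0.0262, adjusted 0.0295) and 0.846 for Fgg (exact p = 0.0116, adjusted 0.0208; rho = 0.881, exact p = 0.00617, adjusted 0.0181). Without the 2 arrays farthest from the median of Havcr1 the values were 0.615, 0.569 and 0.704. With Lcn2 they were r = 0.695 for Fga (exact permutation p = 0.0208, adjusted 0.0268), 0.807 for Fgb (exact p = 0.0448, adjusted 0.0448) and 0.765 for Fgg (exact p = 0.00849, adjusted 0.0191), with rho = 0.727, 0.79 and 0.762 (exact p = 0.0417, 0.00849 and 0.0147, adjusted 0.0417, 0.0181 and 0.022) and 0.548, 0.624 and 0.585 without the 2 farthest arrays. All 9 relations of deviations from group means passed after adjustment. Within day 7 alone Havcr1 had r = 0.836, 0.798 and 0.826 with Fga, Fgb and Fgg (exact permutation, adjusted p = 0.0691, 0.0764 and 0.0691). Without the 2 farthest animals these were -0.712, -0.788 and -0.525. Within day 2 they were 0.848, 0.901 and 0.954 (exact permutation, adjusted p = 0.0222 each). Lcn2 had r = 0.742, 0.835 and 0.863 with Fga, Fgb and Fgg within day 2 (exact permutation, adjusted p = 0.0222 each). Within day 7 Lcn2 had r = 0.895, 0.877 and 0.861 (exact permutation, adjusted p = 0.0567, 0.0567 and 0.025). Without the 2 animals farthest from the median of Lcn2 the day 7 values were 0.735, 0.734 and 0.946. By rho no relation of Havcr1 or Lcn2 with a chain passed within a day (exact permutation, smallest adjusted p = 0.1).

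The genes whose pattern was most like the mean of the chains were sought over 12 arrays, with each day's mean removed. The 10 nearest were Sh3d19 (r = 0.919), the mitochondrial GTPase Noa1 (0.914), Prl7d1 (0.891), the nuclear exporter Xpo1 (0.89), the SUMO protease Senp3 (0.889), the ferredoxin Fdx2 (0.886), Havcr1 (0.886), the nucleolar proteins Nop58 (0.876) and Utp3 (0.868), and Ankib1 (0.873). The median r over all other genes was 0.0016, and 0.319% of them exceeded 0.8. Treatment differences remained in the values that chose these genes, so the signs they share with the chains at both days follow from the choice and are no result. As a description, Sh3d19 had -0.305 and 0.22, Senp3 -0.42 and 0.12, and Utp3 -0.19 and 0.055.

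Genes of interleukin-6 signalling, which drives fibrinogen transcription in liver, were examined next. Il6 itself had a mean log2 signal of 4.01 in placebo and 4.09 under anti-miR-182 at day 2, and 4.97 and 5.01 at day 7. It rose from day 2 to day 7 in placebo (0.96 ± 0.13, SE, limma adjusted p = 0.000301) and under anti-miR-182 (0.92 ± 0.13, 0.000426), the same direction under both treatments. Every Il6 signal was under the lowest of the array-wise lower quartiles (5.34). Stat3, the transcription factor activated by the receptor, differed between treatments by -0.22 ± 0.17 at day 2 and -0.060 ± 0.17 at day 7, and Socs3, its feedback inhibitor, by -0.15 ± 0.17 and 0.10 ± 0.17 (limma adjusted p = 0.845 and 0.999, and 0.895 and 0.999). Stat3 was lowest in treated replicate 3 of day 2 (8.14, against 8.61 to 8.96 elsewhere). Of 21 measured genes of the family 15 were higher and 6 lower under anti-miR-182 at day 2 (median 0.033), and 6 were higher and 15 lower at day 7 (median -0.052), with 0 called at either day in limma. Among all 18166 genes 10669 were higher at day 2 (median 0.033) and 9039 at day 7 (median -0.00078).

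**Figure D5:**
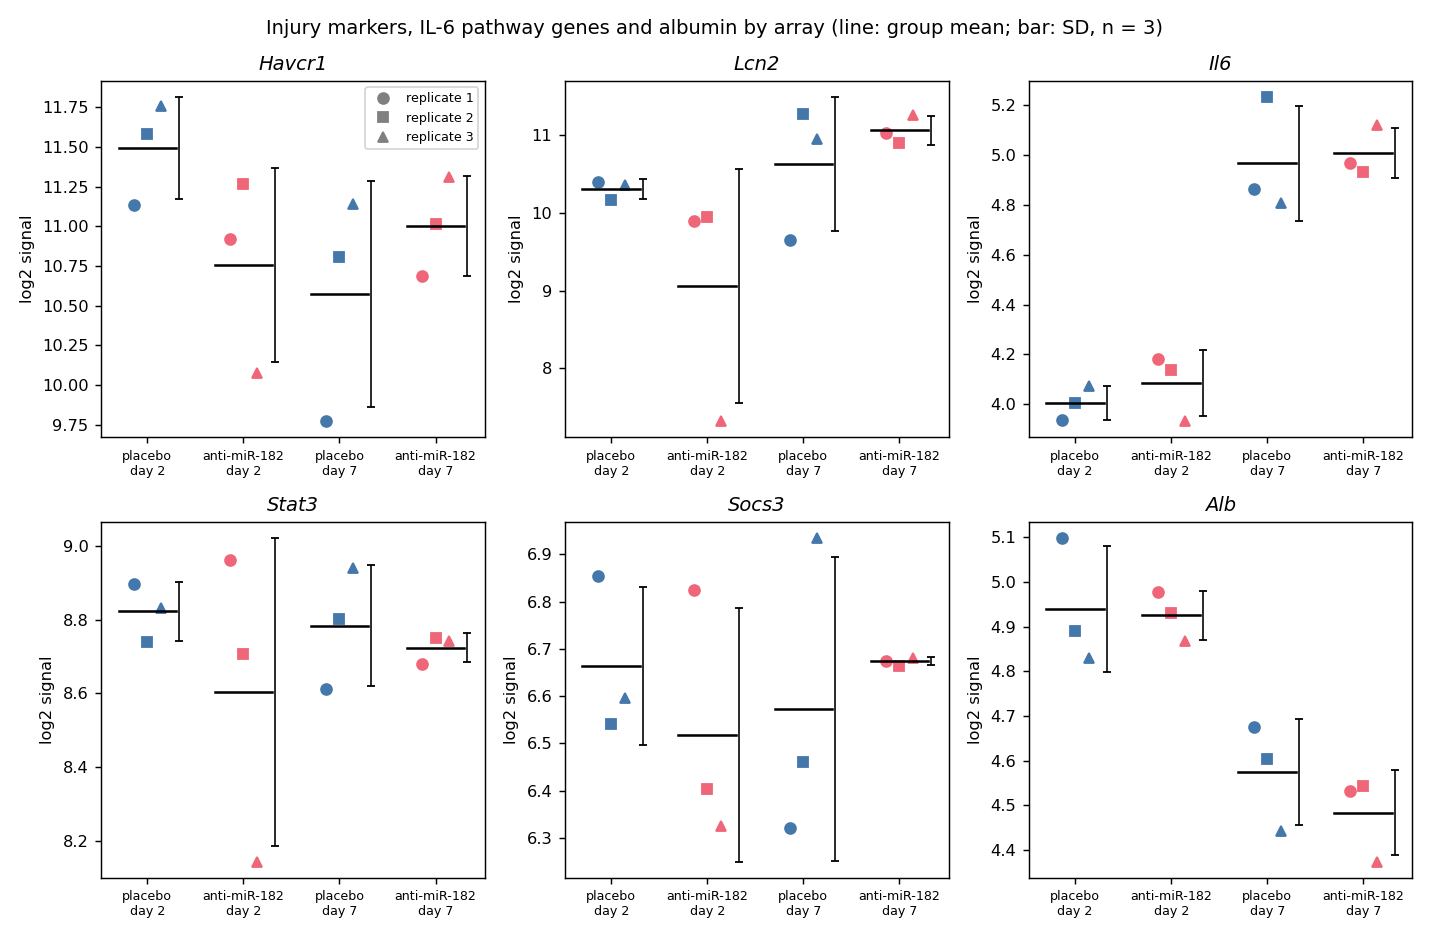
Log2 signal (y axis) of the injury markers Havcr1 and Lcn2, of Il6, Stat3 and Socs3, and of albumin (Alb) by group; symbols give the replicate, lines the group mean and bars the SD (n = 3). Havcr1 and Lcn2 have lower means in treated kidneys of day 2 and higher means in those of day 7, Il6 is higher at day 7 under both treatments, and Alb stays between 4.37 and 5.10.

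Transcription factors described at fibrinogen promoters were measured in 11 of 14 cases. Between treatments 0 were called in limma, with medians of 0.026 at day 2 and -0.057 at day 7. From day 2 to day 7 the pioneer factor Foxa1 rose in placebo (0.84 ± 0.14, SE, limma adjusted p = 0.00141) and under anti-miR-182 (0.47 ± 0.14, 0.0274), while Foxa2 fell in both (-0.38 ± 0.12, 0.0292, and -0.43 ± 0.12, 0.0188). Hnf4a did not pass (-0.49 ± 0.18, 0.0564, and -0.495 ± 0.18, 0.0537). In all, 1 of the 11 rose and 1 fell in placebo, where 4.22% of all genes rose and 23.7% fell. The counts under anti-miR-182 were 1 and 3, where 2.68% of all genes rose and 24.9% fell. The median of all genes shifted by -0.18 in placebo and -0.21 under anti-miR-182.

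Genes of the cascade that ends in fibrin, with its inhibitors, were measured in 24 of 24 cases. None was called between treatments in limma, and the list medians were 0.052 at day 2 and 0.038 at day 7, next to 0.033 and -0.00078 over all genes. Tissue factor (F3), which starts the cascade, differed by -0.22 ± 0.23 and 0.21 ± 0.23, and prothrombin (F2), the precursor of the enzyme that cleaves fibrinogen, by 0.26 ± 0.28 and 0.17 ± 0.28. From day 2 to day 7 in placebo 2 genes rose and 4 fell, of 24 measured, with a median of -0.18, equal to that of all genes, of which 4.22% rose and 23.7% fell. Under anti-miR-182, 1 rose and 5 fell, where 2.68% of all genes rose and 24.9% fell. F3 fell (-0.98 ± 0.23, SE, limma adjusted p = 0.00837), as did factor XI, F11 (-0.46 ± 0.12, 0.0127), and antithrombin, Serpinc1 (-0.76 ± 0.21, 0.016), and the protease inhibitor Tfpi2 rose (0.66 ± 0.15, 0.00679). Under anti-miR-182, F11 (-0.435 ± 0.12, 0.0168) and Tfpi2 (0.62 ± 0.15, 0.00933) passed in the same directions and F3 (-0.56, 0.086) and Serpinc1 (-0.55, 0.0611) did not pass. Every F11 signal was under the lowest of the array-wise lower quartiles (5.34).

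Of the genes of fibrin breakdown 12 of 14 were measured and 0 were called between treatments in limma (medians 0.022 and -0.021). Plasminogen (Plg), the precursor of plasmin, differed by 0.10 ± 0.14 at day 2 and -0.265 ± 0.14 at day 7. The plasminogen receptor Anxa2 was lower under anti-miR-182 at both days (-0.72 ± 0.16 and -0.30 ± 0.16, SE, limma adjusted p = 0.569 and 0.999), with its partner S100a10 at -0.43 ± 0.19 and -0.225 ± 0.19 (0.754 and 0.999). In placebo 3 of the 12 measured genes fell from day 2 to day 7, next to 23.7% of all genes: Anxa2 (-0.545 ± 0.16, limma adjusted p = 0.0234), the urokinase receptor Plaur (-0.34 ± 0.10, 0.027) and the inhibitor Serpinb2 (-0.57 ± 0.15, 0.0143). Under anti-miR-182, 1 rose and 2 fell, where 2.68% of all genes rose and 24.9% fell. There Plaur (-0.55 ± 0.10, limma adjusted p = 0.00232) and Serpinb2 (-0.70 ± 0.15, 0.00515) fell, and Anxa2 did not pass (-0.12 ± 0.16, 0.593). Every Serpinb2 signal was under the lowest of the array-wise lower quartiles (5.34).

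Receptors of fibrinogen and fibrin were measured in 11 of 14 cases, with 0 called between treatments in limma and medians of 0.00046 and -0.073. The leukocyte integrin subunit Itgam rose from day 2 to day 7 in placebo (0.47 ± 0.16, SE, limma adjusted p = 0.0471), and Vldlr (-0.41 ± 0.12, 0.0223) and the platelet receptor Gp1ba (-0.515 ± 0.13, 0.0102) fell, which were the calls among these 11 genes. Under anti-miR-182, 0 rose and 5 fell, Vldlr (-0.37 ± 0.12, limma adjusted p = 0.0369) and Gp1ba (-0.51 ± 0.13, 0.0114) among them, and Itgam did not pass (0.115 ± 0.16, 0.623). Of all genes, 4.22% rose and 23.7% fell in placebo, and 2.68% rose and 24.9% fell under anti-miR-182. Other genes with a fibrinogen C-terminal domain, 15 of 19 measured, likewise had 0 calls between treatments (limma) and medians of 0.081 and -0.038. Among them Angptl4, an inhibitor of lipoprotein lipase, differed by -0.45 ± 0.20 and 0.067 ± 0.20 between treatments, and in placebo Angptl4 (-0.88 ± 0.20, limma adjusted p = 0.00665), the vessel ligand Angpt1 (-0.50 ± 0.16, 0.034) and Tnr (-0.35 ± 0.12, 0.0391) fell from day 2 to day 7, with 0 that rose. Under anti-miR-182, 1 of the 15 fell, and none of these 3 passed (adjusted p = 0.185, 0.113 and 0.0876 in limma).

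Other acute phase proteins are made with fibrinogen in inflamed liver. Of 20 listed genes 17 were measured, 0 were called between treatments in limma, and 11 were higher and 6 lower at each day (medians 0.082 and 0.024). The medians over all genes were 0.033 and -0.00078. The protease inhibitor A2m differed by -0.185 ± 0.26 at day 2 and -0.91 ± 0.26 at day 7, where it was lower under anti-miR-182 and the chains were higher (limma adjusted p = 0.921 and 0.999). From day 2 to day 7 A2m rose by 2.91 ± 0.26 in placebo (adjusted p = 5.25e-05 in limma) and 2.19 ± 0.26 under anti-miR-182 (0.000206), and the copper carrier ceruloplasmin, Cp, rose by 0.69 ± 0.155 (0.00639) and 0.46 ± 0.155 (0.0405). The protease inhibitor Serpina1 fell by 0.74 ± 0.16 (limma adjusted p = 0.00523) and 0.89 ± 0.16 (0.00198). In all, 4 of the 17 rose and 1 fell in placebo, where 4.22% of all genes rose and 23.7% fell. The counts under anti-miR-182 were 7 and 4, where 2.68% of all genes rose and 24.9% fell.

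Hepatocytes and platelets carry fibrinogen or its transcripts, and their markers were examined beside the chains. Of 16 measured hepatocyte markers 7 had mean signals below the lower quartile of all genes. Albumin (Alb), the defining marker, lay between 4.83 and 5.10 at day 2 and between 4.37 and 4.67 at day 7. Alb fell from day 2 to day 7 in placebo (-0.37 ± 0.11, SE, limma adjusted p = 0.0265) and under anti-miR-182 (-0.44 ± 0.11, 0.0115), and differed between treatments by -0.014 ± 0.11 and -0.090 ± 0.11 (SE, limma adjusted p = 0.985 and 0.999). Some other hepatocyte markers rose: Cyp3a2, a drug-metabolising enzyme, by 0.99 ± 0.17 in placebo (limma adjusted p = 0.00156) and 1.29 ± 0.17 under anti-miR-182 (0.000326), and vitronectin, Vtn, by 0.88 ± 0.20 (0.00702) and 0.76 ± 0.20 (0.0146). Serpina1, also on this list, fell as given above. Mean signals of Rbp4 were lower at day 7 than at day 2, 5.93 against 7.33 in placebo and 5.61 against 7.69 under anti-miR-182. Every Alb and Cyp3a2 signal was under the lowest of the array-wise lower quartiles (5.34). In all, 2 of the 16 rose and 5 fell in placebo, where 4.22% of all genes rose and 23.7% fell. The counts under anti-miR-182 were 3 and 4, where 2.68% of all genes rose and 24.9% fell. The mean level of the hepatocyte list ran from 5.42 to 5.50 in placebo and 5.48 to 5.65 under anti-miR-182 at day 2, and from 5.25 to 5.43 and 5.33 to 5.49 at day 7. Between treatments 0 of its members were called at either day in limma, and its medians were 0.084 and -0.0097. The mean level of 8 platelet markers ran from 5.81 to 5.95 and 5.99 to 6.06 at day 2 and from 5.63 to 5.91 and 5.67 to 5.74 at day 7, in the same order of groups. At day 2 the platelet list was thus higher in all treated than in all placebo animals. Of its 8 genes 7 were higher and 1 lower (median 0.16), with 0 called in limma. Among all 18166 genes 10669 were higher at day 2 (median 0.033), and 8.06% had treated animals entirely above placebo animals. Dim signals, with a mean under the all-gene lower quartile, were found for 4 of the 8 platelet markers. The part of hepatocytes and platelets in the chain signals was not tested.

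Markers of the proximal tubule and of blood-derived cells are given for comparison. Of 18 proximal tubule markers 16 were higher and 2 lower under anti-miR-182 at day 7 (median 0.34), and 8 were higher and 10 lower at day 2 (median -0.062). Among them the anion transporter Slc22a6 differed by 0.60 ± 0.29 at day 7 (SE, limma adjusted p = 0.999). Of 16 macrophage and neutrophil markers 14 were lower at day 7 (median -0.17), with Mrc1 at -0.725 ± 0.28 (0.999), and 11 were higher at day 2 (median 0.063). Red blood cell markers, 4 of 9 measured as distinct genes, had medians of 0.045 and 0.034. The medians over all genes were 0.033 at day 2 and -0.00078 at day 7. In all of these lists 0 members were called between treatments in limma, and their part in the chain signals was not tested.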

How the data were processed

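The deposited table holds 36685 rows of log2 signals for 12 arrays, made by the authors with RMA (background correction, normalization and summary of probes) per the submitters' processing notes; neither its version nor whether both days were normalized together is stated. Signals ran from 1.48 to 13.4 and were used as deposited. Groups come from sample titles; another label field calls all samples zero-hour biopsies, against titles of day 2 or day 7. Replicate numbers follow deposition order and pair no animals.

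Rows with 1 symbol and values on all arrays gave 18166 genes (the brightest row of each). The 3 chain rows matched RefSeq by gene ID. A model in limma 3.58.1 (R 4.3.3) was fitted with 1 mean for each of 4 groups and eBayes, and p-values were Benjamini-Hochberg adjusted over all genes (threshold 0.05). In simulated day 2 comparisons with 200 changed genes among 18166, 88.8% of log2 differences of 1 were recovered. Noise was drawn independently for each gene and array, so arrays that stand apart in many genes at once were not modelled. The share is a mean over randomly chosen genes and gives no power for the chains. The number of arrays limits the precision.

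Named genes were the chains, in each list as many as 4 members of smallest unadjusted p for the mean treatment difference or for time in placebo, fixed markers (Havcr1, Lcn2, Il6, Stat3, Socs3, Alb, Plg, F2; a further item is not reported here) and the 10 genes most like the chains. Lrat and Plrg1 were added as chromosomal neighbours. The members and lists were chosen with earlier results of these data known. Promoter windows are from RefSeq (GRCr8); for Fga the first of the listed starts was used.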

Additional observations from a re-analysis of the deposited data

Results flagged for a closer look

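Fga was singled out because its groups did not overlap at either day and stood in opposite order: all 3 treated kidneys of day 2 lay below the placebo kidneys of that day, and all 3 treated kidneys of day 7, from other animals, lay above theirs. Its difference between days was 1.65 ± 0.32 on the log2 scale (SE), which did not pass over all genes in limma (adjusted p = 0.919).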

How the results depend on the processing

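The treatment differences of the chains kept their direction at day 2 and at day 7 under all alternatives run, and so did the difference between days. With 1 array left out at a time they ranged for Fga from -0.97 to -0.72 at day 2, from 0.49 to 1.06 at day 7 and from 1.32 to 1.88 between days. For Fgb the ranges were -1.29 to -0.64, 0.55 to 1.12 and 1.48 to 2.16, and for Fgg -1.41 to -0.79, 0.22 to 0.86 and 1.33 to 1.98. The smallest adjusted p in limma among the single omissions was 0.138, for the difference between days of Fga.

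The mean over both days is close to 0 and changed sign: with array weights it was 0.048 for Fga and 0.124 for Fgb, with quantile normalization 0.017 and 0.012, and with single arrays left out it ran from -0.165 to 0.117 for Fga and -0.21 to 0.117 for Fgb. The day 7 difference of Lcn2, 0.44 in all arrays, ran from -0.053 to 0.76 with single arrays left out, and was -0.053 with treated replicate 3 of day 2 and placebo replicate 1 of day 7 both left out.

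Calls between days were less steady, and the cause was not tested. In placebo the call of Fgg ended with robust eBayes (-0.998), that of Fgg and Fgb with quantile normalization (-0.83 and -0.68), centring (-0.896 and -0.87), every row tested (-0.998 and -0.97) and omission of both treated replicate 3 of day 2 and placebo replicate 1 of day 7 (-0.653 each), a pair chosen after seeing the data, and Fga passed with array weights (-0.55). Single omissions gave -0.75 to -0.19 for Fga (called without placebo replicate 2 of day 7), -1.22 to -0.65 for Fgb (lost without placebo replicates 1 and 3 of day 2 and replicate 1 of day 7) and -1.28 to -0.65 for Fgg (lost in 7 of 12 cases). Under anti-miR-182 Fgb passed with quantile normalization (1.09) and centring (1), and single omissions gave 0.54 to 1.19 (called without treated replicate 2 of day 2 or placebo replicates 1 or 2 of day 7). Fga kept its call there under 12 single omissions and 10 other settings (adjusted p = 4e-04 to 0.0182 in limma). Counts of genes called over time in placebo were 5080 as deposited, 2890 with quantile normalization and 3467 with centring, and 5002, 2676 and 2470 under anti-miR-182. No paired analysis was possible because replicate numbers follow deposition order and every array comes from a different animal.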

Other observations

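The other 12 genes with treated animals entirely below placebo at day 2 and entirely above at day 7 were Abhd17c, C2h3orf33, Ccdc28a, Cmas, Gpatch4, Gpr174, Gtpbp4, Mir300, Nr2f6, Rbpms2, Sh3d19 and Tmem185b, listed after their values were seen. Of these the nucleolar GTPase Gtpbp4, which acts in ribosome assembly, had log2 differences of -0.29 ± 0.095 at day 2 and 0.30 ± 0.095 at day 7 (SE), and the RNA-binding protein Rbpms2 had -0.58 ± 0.14 and 0.20 ± 0.14. Their differences between days, 0.585 and 0.78, were smaller than the 1.65 of Fga, and none of the 12 passed in limma (adjusted p = 0.999 each).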
